A study of Rattus norvegicus with 12 samples.

Results

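The interleukin-6 family of cytokines was followed in rat skin-derived precursors (SKPs) through 10 genes: the cytokines Il6, Lif, Il11 and Ctf1, the receptor subunits Il6st, Il6r, Lifr, Osmr and Il11ra1, and the inhibitor Socs3. The genes were chosen by name, as array features with a single gene symbol of the family, with the brightest feature over all 12 arrays to be taken where a symbol had several. Each of the 10 had 1 feature, so brightness decided none of them, but the list itself was drawn up with earlier results of these arrays known. The 10 were among 18166 genes with a symbol, and all 10 were among the 13636 genes that passed a filter on low signals and were tested.

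SKPs are dermal precursor cells that grow as floating spheres, and the title of the study speaks of drugs that enhance skin repair. Here 3 independent isolates came from newborn Sprague-Dawley pups, and all groups shared a medium with the growth factors EGF (20 ng/ml) and FGF2 (40 ng/ml) and the supplement B27 (2%), at 50000 cells per ml. Cells of dissociated secondary spheres were kept for 24 h with vehicle, with 100 nM alprostadil, with 100 nM trimebutine maleate, or with 100 nM trimebutine maleate and 100 nM trametinib together, called the combination here. Each of the 4 groups had 3 Affymetrix Rat Gene 2.0 ST arrays, numbered as biological replicates 1 to 3, each from 400 ng of total RNA. Alprostadil is prostaglandin E1, which raises cyclic AMP through its receptors, trimebutine is a gut motility drug, and trametinib inhibits the kinase MEK upstream of ERK. Trametinib was given only with trimebutine, so the effect of adding it was read against trimebutine alone.

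Cytokines of the interleukin-6 family share the signalling subunit gp130, encoded by Il6st, which pairs with a receptor subunit for each ligand. Ligand binding activates JAK kinases and the transcription factor STAT3, and STAT3 induces Socs3, which binds gp130 and the JAKs and shuts the signal down. In skin these cytokines are made by fibroblasts, keratinocytes and leukocytes and are known for their part in inflammation and wound healing.

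The labelled cell type was checked against its markers: 13 of 14 dermal precursor or mesenchymal genes were measured, with a mean log2 value of 10.8 to 11.0 in every array, and vehicle means ran from 6.28 for Twist1 and 6.63 for Sox9 to 13.51 for Vim. Nes and Ngfr, markers of neural crest derived precursors, had vehicle means of 8.66 and 8.39. Snai2 had no feature with a single symbol. None of the 13 passed for alprostadil against vehicle. With the replicate number as a block in the model 1 did, Twist2, which was higher (0.33, limma adjusted p = 0.0159). With added trametinib 4 rose, among them Col3a1 (0.97), and 2 fell, Pdgfra (−0.79) and Twist1 (−0.29). Array medians ran from 6.409 to 6.505, highest in alprostadil replicate 1, and any 2 arrays of the same group had r from 0.983 to 0.993. Values are log2 expression values, and a difference of group means is the log2 of a fold change. A gene is said to rise or fall where limma's test gave a Benjamini-Hochberg adjusted p under 0.05 over all 13636 genes. That test did not pair the arrays by replicate number, except where the number is said to be a block in the model. In such cultures fewer cells of a type and less RNA per cell cannot be told apart.

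Promoter windows from RefSeq (build GRCr8), which hold 250 bases before and 50 after a gene's start, existed for 8 of the 10 genes and not for Lif or Il11ra1. The 250 bases before the start are shown for Il6 and Il11, cytokine genes that rose with alprostadil, with matches to the searched motifs in capitals. The Il6 bases lie at chr4:5894576-5894825 on the minus strand and those of Il11 at chr1:78098372-78098621 on the plus strand.
Il6: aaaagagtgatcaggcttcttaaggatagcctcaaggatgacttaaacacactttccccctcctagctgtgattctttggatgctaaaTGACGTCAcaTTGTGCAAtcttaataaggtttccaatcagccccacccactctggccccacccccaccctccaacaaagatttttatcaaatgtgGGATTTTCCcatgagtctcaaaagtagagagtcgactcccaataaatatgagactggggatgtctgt
Il11: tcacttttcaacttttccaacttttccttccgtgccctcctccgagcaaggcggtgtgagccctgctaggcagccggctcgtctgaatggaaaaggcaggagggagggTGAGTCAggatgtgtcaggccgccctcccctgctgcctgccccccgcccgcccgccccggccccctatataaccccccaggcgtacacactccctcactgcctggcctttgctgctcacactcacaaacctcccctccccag
Both strands of the whole windows were searched. The cyclic AMP response element TGACGTCA, which CREB factors bind, began 162 bases before the Il6 start, and 1.83% of all 33469 promoter windows held it. The C/EBP motif TTGCNNAA was matched on the other strand at 152 bases before the Il6 start, and was held by 10.6% of windows. The NF-kB core GGANTTTCC began 67 bases before the Il6 start, and was held by 1.28% of windows. The Il11 window had an AP-1 motif, TGANTCA, at 142 bases before the start, a motif held by 7.33% of windows, and the Osmr window had one at 33 bases. The shorter TGACG, which lies within TGACGTCA, was also matched in the Il6r window, and 21.2% of windows held it. The STAT motif TTCNNNGAA was in none of the 8 windows and in 8.87% of all windows. A match is a description of the letters, not of a bound site.

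Il6 encodes the founding cytokine of the family, and its level was high in both alprostadil and the combination. In replicates 1, 2 and 3 its log2 values were 6.79, 6.47 and 5.87 with vehicle and 9.65, 9.11 and 8.18 with alprostadil. With trimebutine they were 6.64, 6.06 and 6.04, and with the combination 9.05, 8.16 and 7.96. Every alprostadil and combination array lay above every vehicle and trimebutine array, while vehicle overlapped trimebutine and alprostadil overlapped the combination. The means were 6.38 ± 0.47, 8.98 ± 0.75, 6.24 ± 0.34 and 8.39 ± 0.58 (SD, n = 3) in that order of groups. Vehicle replicate 3 and trimebutine replicates 2 and 3 lay near the low-signal limit of log2 5.83. The vehicle and trimebutine means were below all array medians (6.409 to 6.505), so fold changes of Il6 against these groups are uncertain.

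Alprostadil raised Il6 by 2.60 over vehicle (SE 0.38, 95% interval 1.76 to 3.44, limma adjusted p = 0.011), which is 6.07-fold. Within the replicate numbers the rise was 2.86, 2.64 and 2.30, and it was present in each of them. Adding trametinib to trimebutine raised Il6 by 2.15 (SE 0.38, 1.31 to 2.99, limma adjusted p = 0.00112), which is 4.43-fold. The differences by number were 2.42, 2.10 and 1.93. Between alprostadil and the combination the difference of −0.59 did not pass (95% interval −1.42 to 0.25, limma adjusted p = 0.258). With the replicate number as a block in the model it passed (−0.94 to −0.24, limma adjusted p = 0.0109), and the combination was lower by 0.60, 0.95 and 0.21 in the 3 numbers. Without the block the alprostadil call for Il6 was lost in 4 of the 6 runs that left out 1 array, those without replicate 2 or 3 of vehicle and those without replicate 1 or 2 of alprostadil (0.0528 to 0.0714). With the block it held on leaving out any 1 replicate number (adjusted p = 0.000131 to 0.0128). Its call against trimebutine, a difference of 2.73, was lost without alprostadil replicate 2 (adjusted p = 0.0507) or trimebutine replicate 2 (0.055).

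Lif encodes leukemia inhibitory factor, which signals through Lifr and gp130, and it was high with alprostadil alone. Its values in replicates 1 to 3 were 9.02, 8.65 and 8.31 with alprostadil, against 7.58, 7.44 and 7.40 with vehicle. With trimebutine they were 7.49, 7.38 and 7.36, and with the combination 7.40, 7.23 and 7.19. No alprostadil array overlapped any other group, and the other 3 groups lay within 7.19 to 7.58. Alprostadil raised Lif by 1.19 over vehicle (SE 0.14, 0.88 to 1.5, limma adjusted p = 0.0032), which is 2.28-fold. The rise was 1.45, 1.21 and 0.91 in the 3 numbers. The direct comparison of the treatments under which Il6 was high separated them for Lif: the combination was 2.62-fold below alprostadil (difference −1.39, limma adjusted p = 1.66e-05). Adding trametinib to trimebutine gave a difference of −0.14 (−0.45 to 0.17, limma adjusted p = 0.511).

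Il11 encodes interleukin-11, known for its action on fibroblasts through Il11ra1 and gp130, and its pattern over the groups resembled that of Lif. Values in replicates 1 to 3 were 6.35, 6.11 and 6.23 with vehicle and 7.24, 6.72 and 7.02 with alprostadil. They were 6.20, 6.14 and 5.90 with trimebutine and 5.98, 5.84 and 5.75 with the combination. The alprostadil arrays stood above all others, and the combination arrays lay below all vehicle arrays but overlapped trimebutine. The combination mean of 5.86 was close to the low-signal limit of log2 5.83, so fold changes that involve that group are uncertain. Alprostadil raised Il11 by 0.77 (SE 0.13, 0.49 to 1.04, limma adjusted p = 0.0256), or 1.7-fold, with 0.89, 0.61 and 0.80 in the 3 numbers. The combination was lower than alprostadil by 1.14, which is 2.2-fold (limma adjusted p = 3.39e-05). It was also 1.29-fold below vehicle (limma adjusted p = 0.0409), a call that ended with no filter on low signals (0.0581) and with arrays centred on their 75th percentile (0.0765). That call was also lost without vehicle replicate 1 or 3 or combination replicate 2 or 3 (0.082 to 0.138), and with the block without the arrays numbered 1 (0.0529) or 3 (0.0505). The rise with alprostadil did not pass on leaving out any single vehicle array or alprostadil replicate 1 or 3 (adjusted p = 0.051 to 0.154), and with the block it was lost without the arrays numbered 1 (0.072).

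Ctf1 encodes cardiotrophin 1, another ligand of Lifr and gp130, and none of the comparisons without the block passed for it. Its group means were 7.02 ± 0.13 with vehicle, 6.98 ± 0.09 with alprostadil, 7.05 ± 0.23 with trimebutine and 7.17 ± 0.15 with the combination (SD, n = 3). All 4 groups overlapped, over a range of 6.82 to 7.29. With the block the combination was above alprostadil by 0.19 (limma adjusted p = 0.0393, against 0.228 without it), with differences of 0.05, 0.32 and 0.21 in the 3 numbers.

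**Figure D1:**
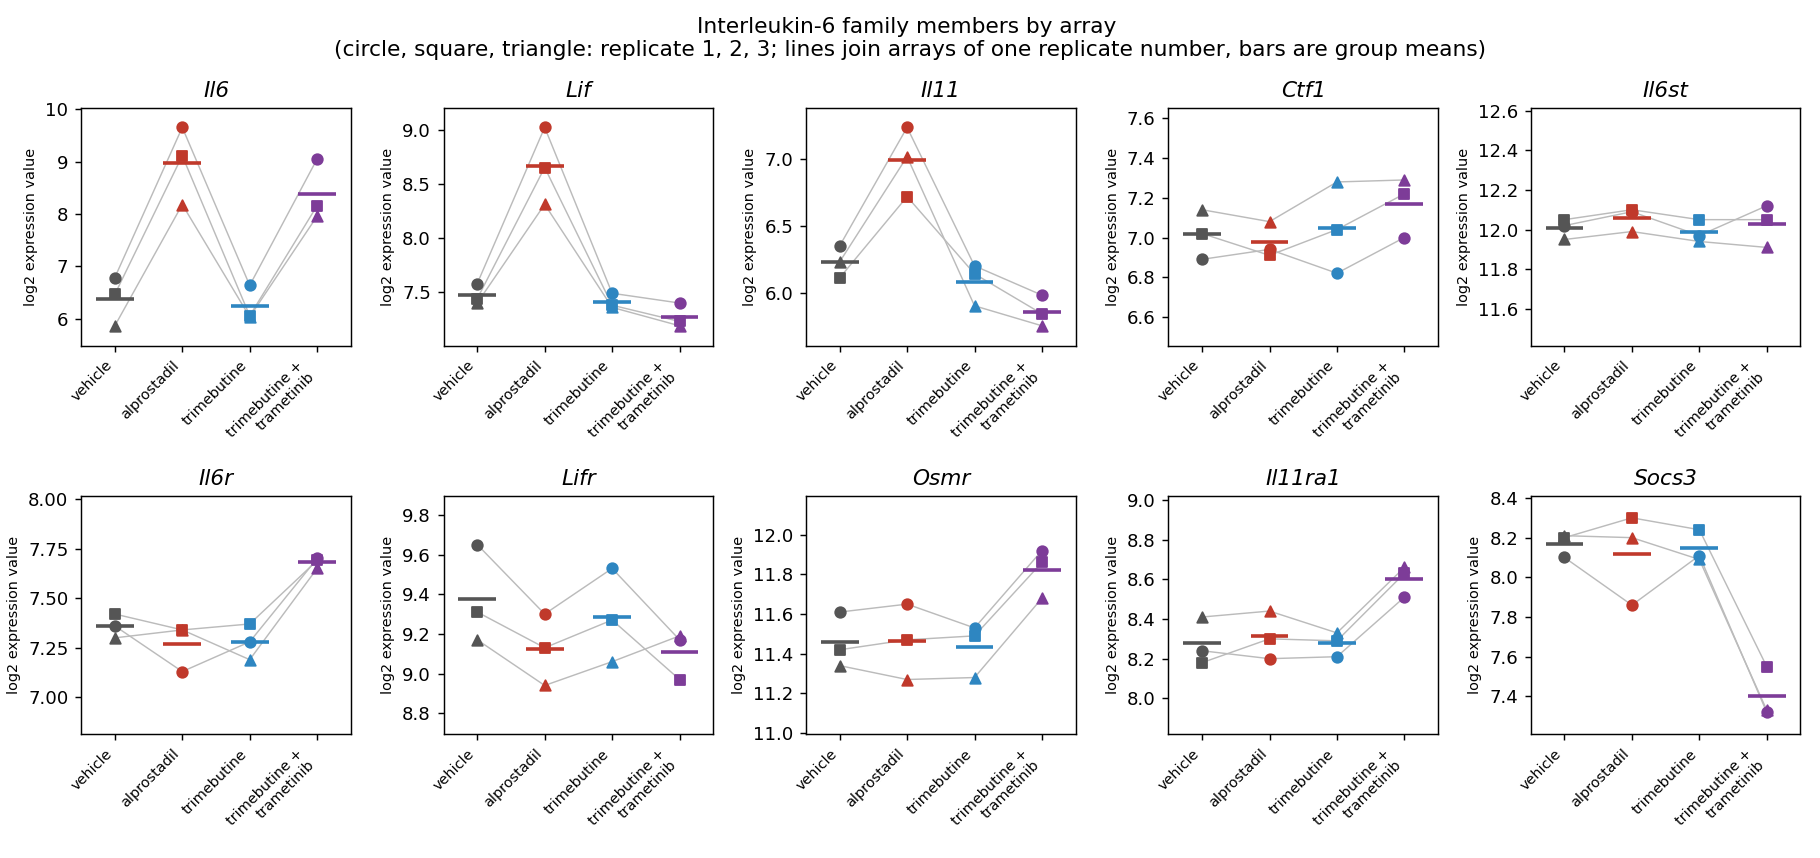
Log2 expression value (vertical axis, on a scale of its own in each panel) of the 10 genes in the 12 arrays, by treatment group. Circles, squares and triangles are replicates 1, 2 and 3, thin lines join arrays of one number and bars are group means; Il6 is high in 2 groups, Lif and Il11 in alprostadil alone, and Il6r, Osmr, Il11ra1 and Socs3 stand apart in the combination.

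The receptor genes showed no change with alprostadil that passed the test, and 3 of the 5 rose when trametinib was added. Il6st, the gp130 subunit common to the family, stayed between 11.91 and 12.12 in all 12 arrays. Its difference was 0.06 for alprostadil against vehicle (−0.09 to 0.20) and 0.04 for the combination against trimebutine (−0.10 to 0.19). Neither passed (limma adjusted p = 0.924 and 0.684).

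Il6r encodes the subunit that binds interleukin-6 itself, and it was highest in the combination. In replicates 1 to 3 its values were 7.36, 7.42 and 7.30 with vehicle, 7.13, 7.34 and 7.34 with alprostadil, 7.28, 7.37 and 7.19 with trimebutine, and 7.70, 7.69 and 7.65 with the combination. No combination array overlapped another group. The rise over trimebutine was 0.40 (SE 0.07, 0.24 to 0.56, limma adjusted p = 0.00124), or 1.32-fold. Il6r also stood above vehicle by 0.32 (adjusted p = 0.00506) and above alprostadil by 0.41 (adjusted p = 0.000931) in limma's test.

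Osmr encodes the receptor subunit for oncostatin M, and its levels followed the replicate numbers as well as the treatment. Values in replicates 1 to 3 were 11.61, 11.42 and 11.34 with vehicle, 11.65, 11.47 and 11.27 with alprostadil, 11.53, 11.49 and 11.28 with trimebutine, and 11.92, 11.86 and 11.68 with the combination. Replicate 1 was highest and replicate 3 lowest in each group, and the combination arrays lay above all others. Adding trametinib raised Osmr by 0.39 (SE 0.11, 0.14 to 0.63, limma adjusted p = 0.0191), or 1.31-fold, with 0.39, 0.37 and 0.40 in the 3 numbers. That call was lost without trimebutine replicate 3 or combination replicate 1 or 2 (adjusted p = 0.0613 to 0.0732), and with the block on all arrays the adjusted p was 0.000214. The combination exceeded vehicle and alprostadil by 0.36 each (limma adjusted p = 0.0245 and 0.0243). The first of these calls was lost without vehicle replicate 2 or 3 or combination replicate 1 or 2 (0.0699 to 0.0849), and the second without alprostadil replicate 2 or 3 or combination replicate 1 or 2 (0.056 to 0.0973).

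Il11ra1 encodes the ligand-binding subunit for interleukin-11. Its values in replicates 1 to 3 were 8.24, 8.18 and 8.41 with vehicle, 8.20, 8.30 and 8.44 with alprostadil, 8.21, 8.29 and 8.33 with trimebutine, and 8.51, 8.63 and 8.66 with the combination. Again the combination arrays overlapped no other group. Its rise over trimebutine was 0.33 (SE 0.08, 0.15 to 0.50, limma adjusted p = 0.00882), or 1.25-fold. The combination was above vehicle by 0.32 (limma adjusted p = 0.00868) and above alprostadil by 0.29 (0.0148), and the latter call was lost without alprostadil replicate 1 (0.0587) or combination replicate 3 (0.0505).

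Lifr encodes the subunit for leukemia inhibitory factor and cardiotrophin 1, and its group means were 9.38 ± 0.25 with vehicle, 9.12 ± 0.18 with alprostadil, 9.29 ± 0.24 with trimebutine and 9.11 ± 0.12 with the combination (SD, n = 3). All groups overlapped, and no comparison without the block passed. With the block the combination was 0.27 below vehicle (limma adjusted p = 0.0376, against 0.18 without it). The differences by number were −0.48, −0.34 and 0.02, so replicate 3 did not share the direction.

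Socs3, the feedback inhibitor, was the member that fell with trametinib. Its values in replicates 1 to 3 were 8.10, 8.20 and 8.21 with vehicle, 7.86, 8.30 and 8.20 with alprostadil, 8.11, 8.24 and 8.09 with trimebutine, and 7.32, 7.55 and 7.33 with the combination. The 3 combination arrays lay below all 9 others. The combination was below trimebutine by 1.68-fold (difference −0.75, SE 0.11, −0.99 to −0.52, limma adjusted p = 0.000228), with −0.79, −0.69 and −0.77 in the 3 numbers. It was 1.71-fold below vehicle (limma adjusted p = 0.000182) and 1.65-fold below alprostadil (0.000266). Alprostadil itself gave a difference of −0.05 against vehicle (−0.28 to 0.19, limma adjusted p = 0.978), while Il6 and Lif were higher in the same arrays.

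Counted over the family, alprostadil raised 3 of 10 genes over vehicle and lowered none, beside 0.323% of all genes tested that rose and 0.066% that fell. With the block the same 3 rose, beside 1.17% of all genes. In a model of those 2 groups alone none of the 3 passed (limma adjusted p = 0.065 for Il6, 0.054 for Lif and 0.142 for Il11). Against trimebutine alprostadil raised the same 3, by 6.65-fold for Il6, 2.38-fold for Lif and 1.89-fold for Il11 (limma adjusted p = 0.00743, 0.003 and 0.00743), beside 0.33% of all genes. In a model of those 2 groups Il11 did not pass (0.0889).

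With trimebutine alone none of the 10 passed against vehicle, and 0% of all genes passed limma's test, with 143 of 13636 genes at an unadjusted p under 0.05 and 252 with the block. The 95% interval of its fold change ran from 0.511 to 1.63 for Il6, from 0.773 to 1.19 for Lif, from 0.893 to 1.09 for Il6st and from 0.838 to 1.16 for Socs3. Of these 4 intervals that of Il6 was the widest.

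The combination raised 4 of 10 over trimebutine and lowered 1, beside 16.8% of all genes that rose and 16.6% that fell. Against vehicle it raised 4 and lowered 2, beside 17.5% in each direction over all genes. With the block 3 were lower than vehicle, Lifr being added, beside 21.1% of all genes. Against alprostadil it was higher for 3 and lower for 3, beside 19.6% and 18.2% of all genes. With the block these became 4 and 4, Ctf1 and Il6 being added, beside 24.5% and 21.9%. Comparisons that use the same group share its arrays and are not independent.

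**Figure D2:**
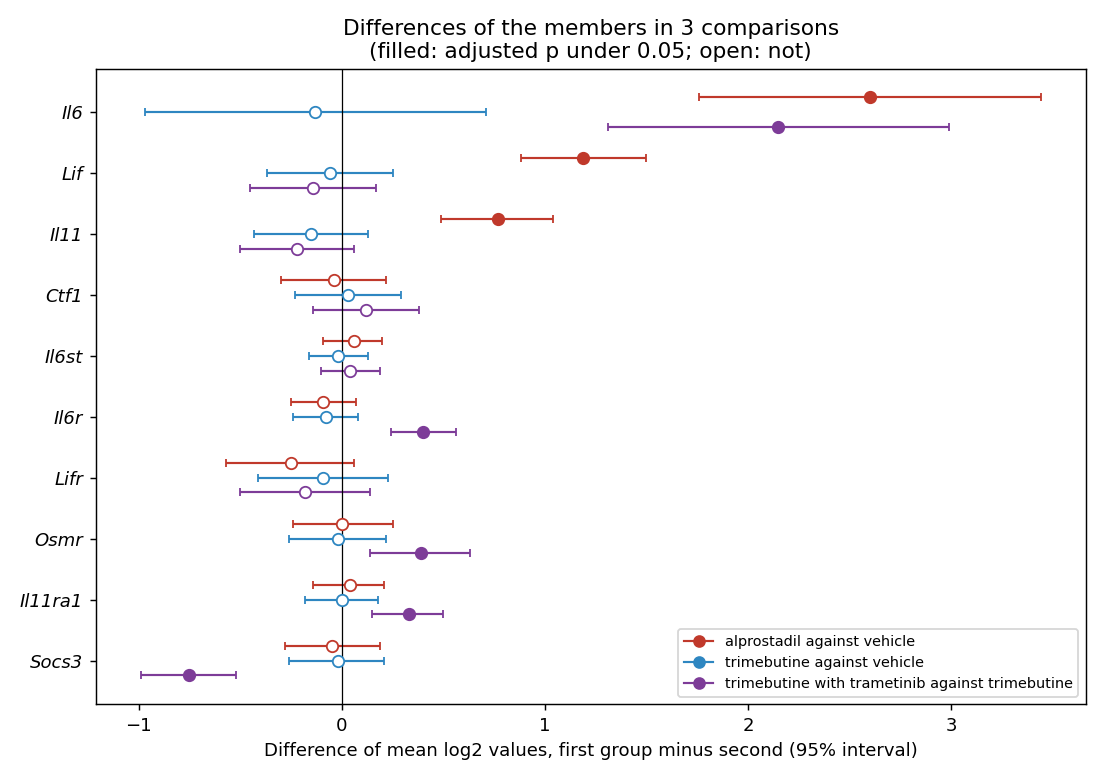
Difference of mean log2 values, first group minus second (horizontal axis), for the 10 genes in 3 comparisons; points are differences, bars 95% intervals from limma, and filled points have an adjusted p under 0.05. Il6 rises with alprostadil (2.60) and with added trametinib (2.15), Lif and Il11 with alprostadil alone, and Socs3 falls with added trametinib (−0.75).

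The order of the group means thus differed between members. For Il6 it was alprostadil, combination, vehicle and trimebutine, and of the neighbours in that order the combination and vehicle differed beyond their spread (difference 2.02, limma adjusted p = 0.00167). For Lif and Il11 it was alprostadil, vehicle, trimebutine and combination, and only the step from alprostadil to vehicle passed. The combination led for Il6r, Osmr and Il11ra1 and came last for Socs3, and in each of these 4 genes only the step to the combination passed.

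The replicate number also marked the levels. Of the sum of squares over the 12 arrays, treatment held 87.7% for Il6, 92.4% for Lif, 90% for Il11 and 88.7% for Socs3, beside a median of 49.7% over all genes. The number held 61.8% for Ctf1, 59.8% for Il6st, 46.8% for Lifr and 33.3% for Osmr, beside a median of 13.9%. Il6, Lif and Osmr were each highest in the array numbered 1 and lowest in that numbered 3 in 4 of 4 groups, and Lifr in 3.

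**Figure D3:**
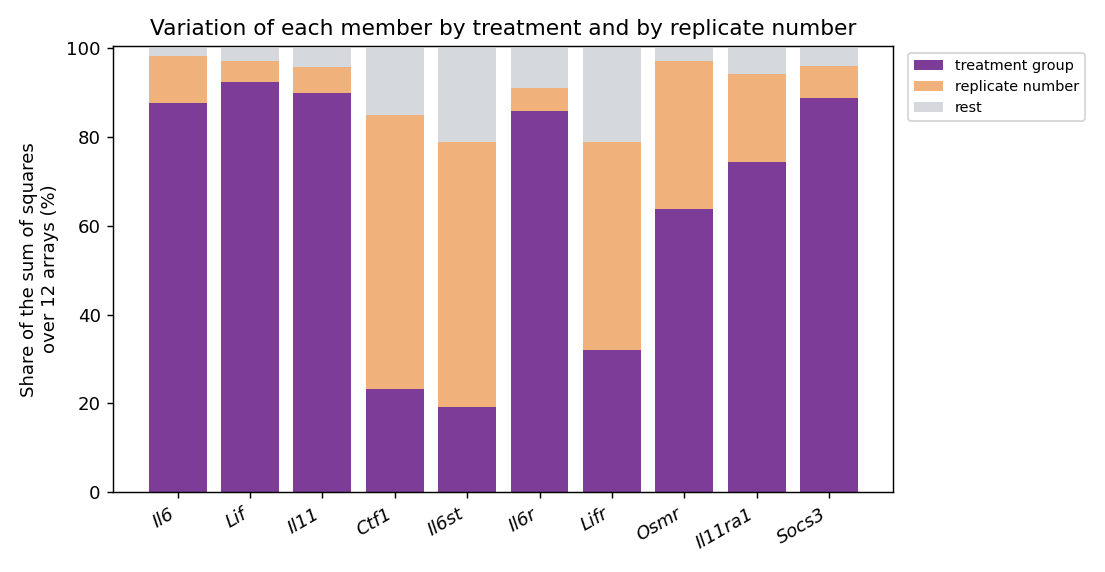
Share of the sum of squares over 12 arrays (vertical axis, %) that lies between treatment groups, between replicate numbers and in the rest, for each of the 10 genes. Treatment holds 85.9% or more for Il6, Lif, Il11, Il6r and Socs3, and the replicate number holds the largest share for Ctf1, Il6st and Lifr.

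Markers of macrophages and leukocytes, cells known to make Il6, moved with the replicate numbers in the opposite order. The mean log2 value of 15 markers, all measured, was 7.42 to 7.66 in arrays numbered 1, 8.08 to 8.24 in those numbered 2 and 8.45 to 8.85 in those numbered 3. Il6 was highest in the arrays numbered 1, where these markers were lowest. Between groups the range was 7.66 to 8.73 with vehicle, 7.42 to 8.85 with alprostadil, 7.55 to 8.74 with trimebutine and 7.54 to 8.45 with the combination. None of the 15 passed for alprostadil against vehicle, and with the block 1 did, Adgre1, which was lower. For the combination against trimebutine C1qa rose by 0.52 and Cd68 fell (−1.03), and with the block 4 were higher and 3 lower. The rise of Il6 with alprostadil was present within each number, as given above. The part of macrophages and leukocytes in the level of Il6 was not tested. Of the other markers, 5 adipocyte genes had array means of 9.29 to 10.23 with the combination and 8.38 to 9.78 with trimebutine. Of these 1 of 5 rose, and 5 of 5 with the block. The part of these genes in the combination's differences was not tested. Adipocyte means also rose from number 1 to number 3 within every group. They were 8.45, 9.07 and 9.77 with vehicle and 8.33, 9.18 and 9.56 with alprostadil. An order opposite to that of Il6 was thus not confined to the macrophage and leukocyte markers. Of other cell types, the genes that passed the low-signal filter were 1 of 6 of mast cells, 4 of 8 of keratinocytes, 3 of 7 of endothelium, 4 of 7 of Schwann cells and 3 of 6 of melanocytes. Array means of the 4 keratinocyte genes were 6.06 to 6.29, of the 3 endothelial genes 5.78 to 6.09, of the 4 Schwann genes 6.73 to 7.26 and of the 3 melanocyte genes 7.58 to 7.95. The Schwann means were 6.73 to 6.89, 6.93 to 7.15 and 6.99 to 7.26 in arrays numbered 1, 2 and 3. Without the block, of the genes of these other cell types Dct of melanocytes passed in the comparison of the combination with trimebutine (0.31, limma adjusted p = 0.013), and none passed for alprostadil against vehicle. With the block S100b of Schwann cells was also higher in the combination than in trimebutine (0.58, limma adjusted p = 1.45e-05, against 0.243 without it).

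**Figure D4:**
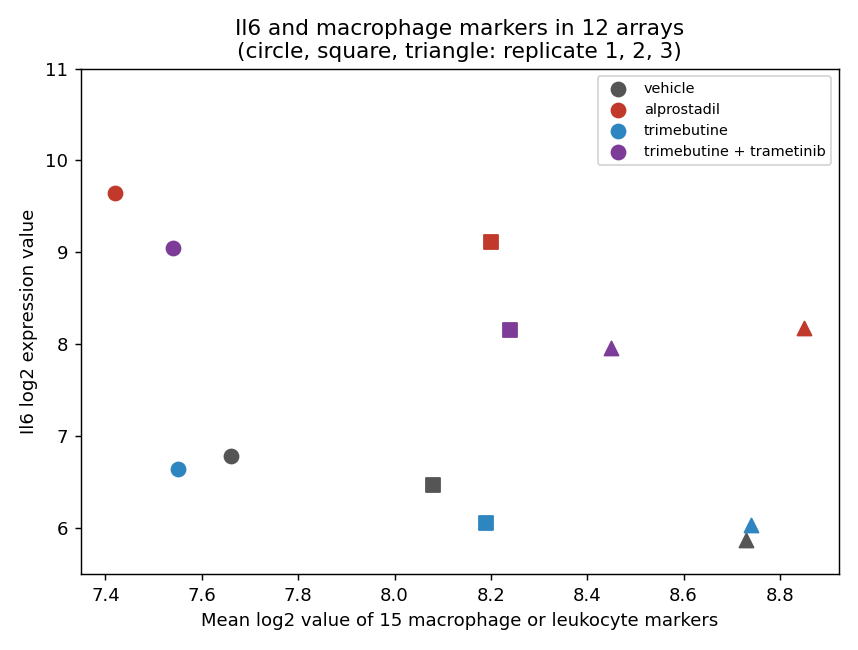
Il6 log2 expression value (vertical axis) against the mean log2 value of 15 macrophage or leukocyte markers (horizontal axis) in 12 arrays, coloured by treatment, with circles, squares and triangles for replicates 1, 2 and 3. Within each replicate number the alprostadil and combination arrays lie above vehicle and trimebutine, while the markers separate the numbers (7.42 to 7.66, 8.08 to 8.24 and 8.45 to 8.85).

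The rest of the pathway was described through lists of genes by role, drawn up with earlier results of these data known. Over all genes 0.323% rose and 0.066% fell with alprostadil. With it none of 4 other cytokines, 2 other receptors, 10 kinases, STATs and adaptors or 10 inhibitors and shedding proteases passed. Stat3, the main transcription factor of the family, gave 0.24 (limma adjusted p = 0.189) and the kinase gene Jak2 0.21 (0.786). Of 17 genes known as STAT3 targets, Vegfa, the vascular growth factor, rose by 0.73 (limma adjusted p = 0.00226) and none fell, with a median difference of 0.04 over the list and −0.01 over all genes. Junb gave 0.41 (0.172) and Hif1a 0.28 (0.171), and both passed with the block (limma adjusted p = 0.0234 and 0.0226). Of 18 regulators of cytokine transcription and mRNA decay 1 rose, Crem, a cyclic AMP responsive factor (0.49, limma adjusted p = 0.0146), with a list median of 0.09.

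For the combination against trimebutine the counts of these lists stand beside 16.8% of all genes that rose and 16.6% that fell. Of the 4 other cytokines Clcf1, a ligand of the ciliary neurotrophic factor receptor, fell, from 8.18 to 7.50 (difference −0.68, SE 0.08, limma adjusted p = 4.12e-05). The receptor gene for that ligand, Cntfr, rose from 7.38 to 8.29 (0.91, SE 0.13, limma adjusted p = 0.000212). Of the 10 kinases, STATs and adaptors 3 rose and 2 fell, with a median of −0.07. Jak2 rose by 0.95, Stat3 by 0.67 and Ptpn11, the phosphatase SHP2 that links gp130 to ERK, by 0.38 (limma adjusted p = 6.22e-05, 8.04e-06 and 0.000171). Jak1 and the adaptor Shc1 fell (−0.26 and −0.36, limma adjusted p = 0.00742 and 0.0014).

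Among 10 inhibitors and shedding proteases 1 rose and 5 fell, with a median of −0.19 beside 0.03 over all genes. The suppressor gene Socs5 fell (−0.86, limma adjusted p = 5.7e-06), as did Pias3, an inhibitor of STAT3 (−0.49, 0.000339), and Ptpn2, a phosphatase of JAKs and STATs (−0.34, 0.00535). Pias1 (−0.25) and Adam17 (−0.33), the protease that sheds the interleukin-6 receptor, were also lower (limma adjusted p = 0.00572 and 0.0229). Cish, another SOCS family gene, rose by 0.37 (limma adjusted p = 0.00219). Of the 17 STAT3 targets 3 rose and 5 fell, beside 16.8% and 16.6% of all genes, with a median of 0.09. Vegfa fell (−1.21, limma adjusted p = 4.52e-07), opposite to its rise with alprostadil. Lcn2, a secreted iron carrier of inflammation, and the chemokine gene Ccl2 fell too (−1.63 and −0.78, limma adjusted p = 0.000455 and 4.43e-05). Bcl3, a partner of NF-kB, rose by 0.83 (0.000416).

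Regulators of cytokine transcription and mRNA decay changed in 15 of 18 cases with added trametinib, 8 higher and 7 lower, beside 16.8% and 16.6% of all genes, with a median of −0.01. Arid5a, whose protein is known to stabilise Il6 mRNA, rose by 1.30 (limma adjusted p = 4.79e-06). Zc3h12a, which encodes regnase-1, an enzyme that cuts Il6 mRNA, fell (−0.70, limma adjusted p = 0.0107). Zfp36l1 and Zfp36, of the family that destabilises such mRNAs, rose by 0.57 and 0.47 (limma adjusted p = 1.34e-05 and 0.00086). Fosl1, an AP-1 subunit, fell (−1.71, limma adjusted p = 2.18e-07), and Nfkbia, the inhibitor of NF-kB, fell as well (−0.66, 0.00164). The NF-kB subunit genes Nfkb1, Nfkb2 and Relb also fell (−0.28, −0.40 and −0.25, limma adjusted p = 0.00912, 0.00342 and 0.0183). Rela, another of them, rose by 0.22 (limma adjusted p = 0.00857). The part of these regulators in the level of Il6 was not tested. Crem rose by 0.52 (0.000232), in addition to its rise with alprostadil.

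**Figure D5:**
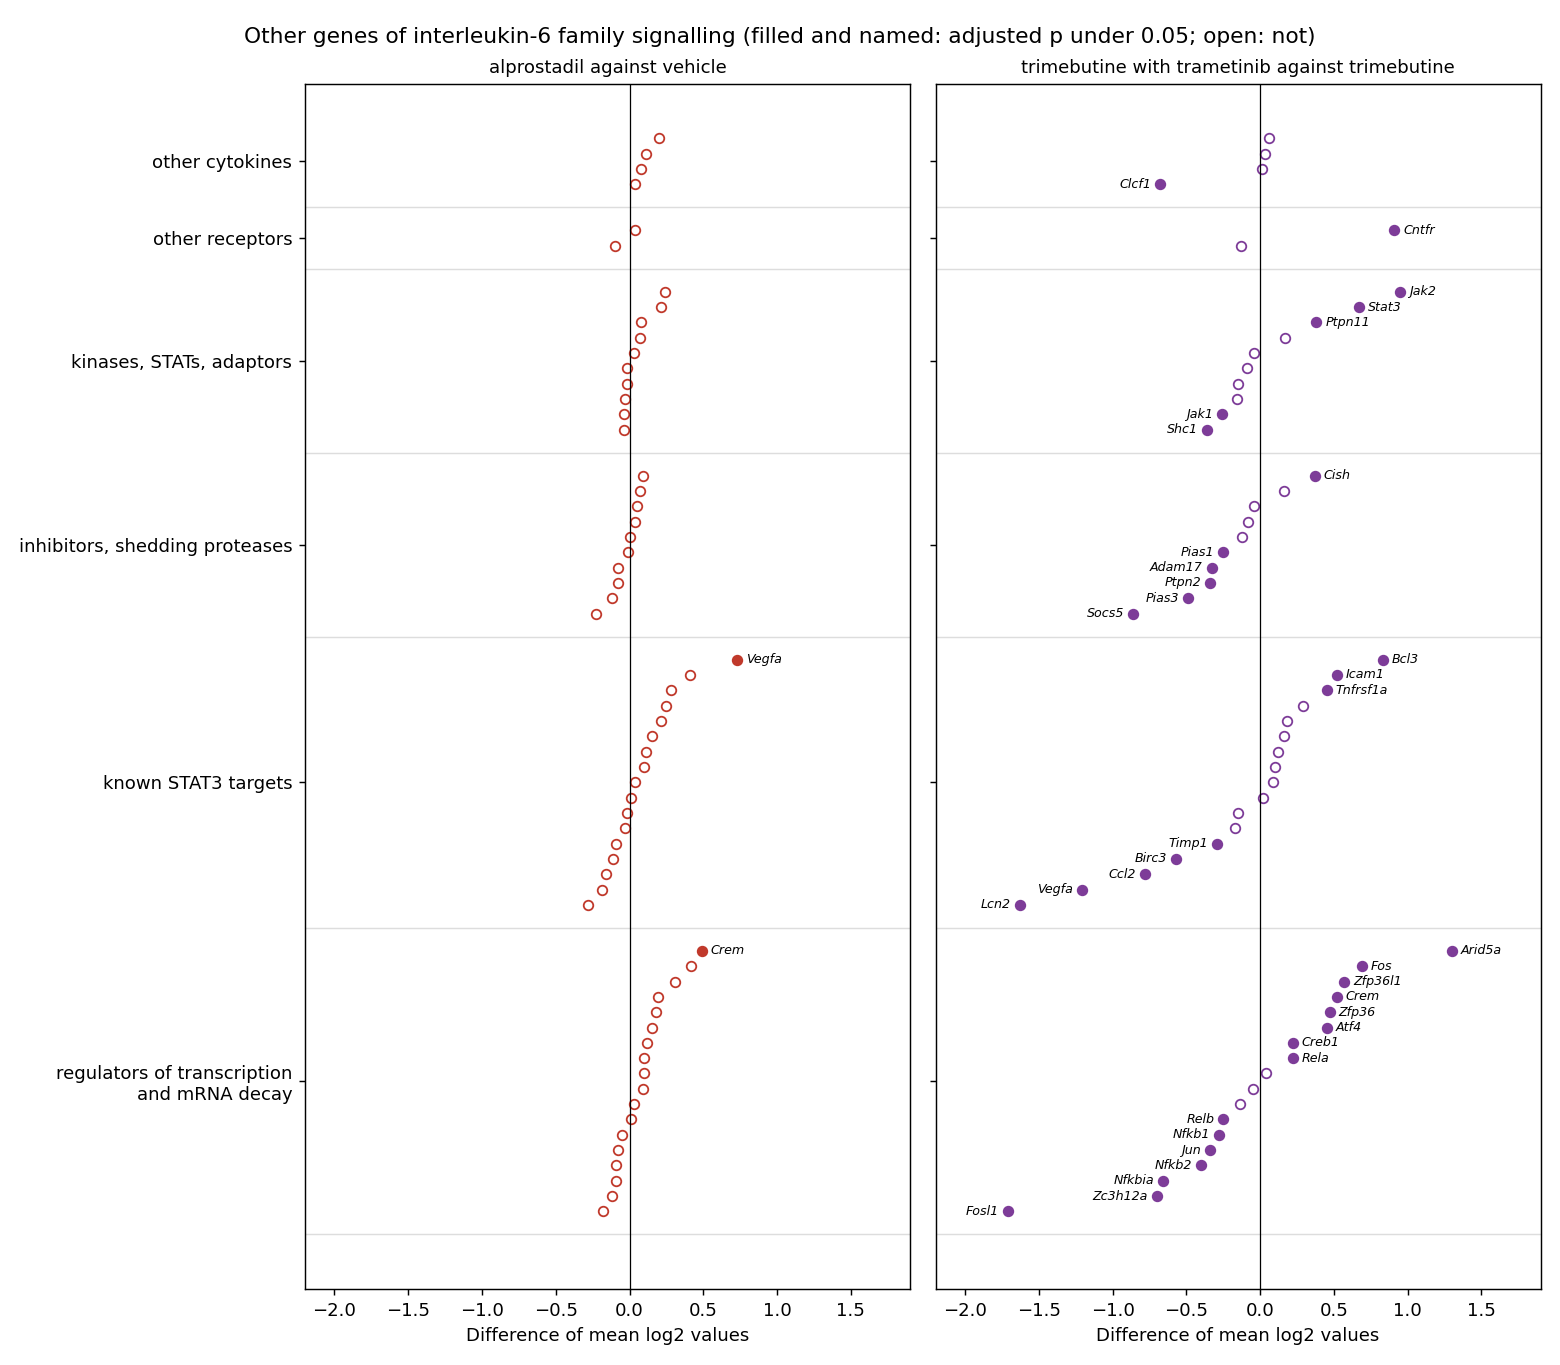
Difference of mean log2 values (horizontal axis) of other genes of interleukin-6 family signalling, grouped by role, for alprostadil against vehicle (left) and trimebutine with trametinib against trimebutine (right). Each point is a gene, and filled, named points have a limma adjusted p under 0.05: Vegfa and Crem on the left, and genes in both directions on the right, from Fosl1 (−1.71) to Arid5a (1.30).

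Genes that respond to the pathways the drugs act on were set beside the family. Of 10 genes known to respond to cyclic AMP, 6 rose with alprostadil (median 0.72), beside 0.323% of all genes, among them Nr4a1 by 2.46, Pde4b by 1.24 and Areg by 1.11. With added trametinib 5 of the 10 rose and 1 fell (median 0.35), beside 16.8% and 16.6% of all genes. Nr4a1 rose there by 1.76, and Pde4b and Pde4d gave 0.03 and −0.04, which did not pass. Of 11 genes known to respond to MEK and ERK, 11 fell with added trametinib (median −1.71), beside 16.6% of all genes, among them Dusp6, a phosphatase of ERK (−3.23). With alprostadil 1 of these 11 rose, Phlda1.

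The tested genes whose values ran most like those of a member were ranked by Pearson's r over the 12 arrays, which share the treatments and the replicate numbers. Genes picked this way tend to share the member's treatment differences by that choice. The differences given here therefore describe them and are no further evidence. For Il6 the genes were Plpp3 (r = 0.965), Man1a1 (0.963), Hs3st1 (0.959), Nr4a1 (0.953) and Pde10a (0.934). Plpp3, a lipid phosphatase gene, rose by 0.62 with alprostadil and by 0.47 with added trametinib (limma adjusted p = 0.0175 and 0.0031), and Hs3st1, a heparan sulfate enzyme gene, by 1.00 and 0.76 (0.00395 and 0.000711). Man1a1 gave 0.46 in each, and passed with added trametinib only (limma adjusted p = 0.231 and 0.0136). Pde10a gave 0.84 and 0.44 and passed in neither (limma adjusted p = 0.122 and 0.0996). For Lif they were Areg (0.966), Vav3 (0.965), Giot1 (0.965), Cbarp (0.958) and Rorb (0.944). For Il11 they were Giot1 (0.969), Lif itself (0.941), Rorb (0.940), Fzd1 (0.935) and Phlda1 (0.935). Rorb, a nuclear receptor gene, rose by 1.70 with alprostadil and fell with added trametinib (−0.62, limma adjusted p = 0.00504). For Socs3 they were F2rl2 (0.987), Rybp (0.985), Itpr3 (0.980), Col8a1 (0.978) and Axin2 (0.977), and all 5 fell with added trametinib, by log2 differences from −0.57 for Rybp to −1.99 for F2rl2. Among the members, Lif and Il11 correlated at 0.94, Il6 with Lif at 0.64 and with Il11 at 0.48, over the same 12 arrays.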

How the data were processed

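Total RNA of 12 SKP cultures was hybridised to arrays of 1 colour. The deposited log2 values come, per the submitters' processing notes, from the oligo package and its RMA method as run by the authors. Versions, settings and the annotation's build were not given in the sources used here. RMA gives arrays a common distribution, which hides any change in the total RNA of a cell. Of 36685 features 18511 had 1 gene symbol, 575 several and 17599 none, and the first were used. Names were brought up to date by Entrez identifier with the GRCr8 gene table (18394 matched). Genes with a mean under the 25th percentile (log2 5.83) were left out. Groups and replicate numbers came from sample titles.

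One limma model (3.58.1, R 4.3.3) with a mean per group was fitted to all 12 arrays, two-sided, with 8 residual degrees of freedom (6 with the replicate block). The steps of the main model were tested on simulated data that held no replicate effect, so the block model was not covered. Deviations from the group means correlated at 0.21 to 0.81 in the 18 pairs of arrays that share a replicate number. In the 36 other pairs they correlated at −0.71 to 0.10. Deviations cancel within a group by construction, so the ranges are not independent. With the 3 isolates of the design text, the correlations within a number were the ground for pairing. Equal numbers were paired in the block model and in the differences by number. The main model does not pair them, and p-values come from it unless the block is named. For Il6 with alprostadil against vehicle the SE was 0.38 in the main model and 0.16 with the block (limma adjusted p = 0.011 and 6.47e-05). The labels do not say that a number is an isolate, so the p-values measure the spread between these biological replicates, and the number of arrays limits the precision.

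The members and lists were chosen with earlier results of these data known. Genes named were all members, up to 4 per list with the smallest p in alprostadil against vehicle and in trimebutine with trametinib against trimebutine, and the 5 genes most like Il6, Lif, Il11 and Socs3. Other genes named complete a small count, or were chosen after their values were seen. Alternatives covered filters, quantile normalization, centring, trend and robust settings, the mean of several features, models of 2 groups, the block and leaving out arrays.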

Additional observations from a re-analysis of the deposited data

How the results depend on the processing

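No called difference of a member changed sign under any alternative. Without the block, the 6 runs that left out 1 array gave 1 to 2 members called for alprostadil against vehicle (3 with all arrays), and 30 to 42 genes over all genes (53 with all arrays). Only the 2 groups compared gave 0 members and 29 genes. For alprostadil against trimebutine the count over all genes was 52, with 29 to 44 when 1 array was left out and 29 with only the 2 groups. The replicate block gave 257 genes for alprostadil against vehicle and 342 against trimebutine. Runs with the block that left out all arrays of 1 replicate number, chosen after seeing the data, gave 37 to 125 genes for the first, with 88 without number 1, 37 without number 2 and 125 without number 3, and 91, 19 and 148 for the second. These runs have fewer arrays. In them the calls that only the block gave held without number 3 for Il6 against alprostadil (adjusted p = 0.00152) and Lifr against vehicle (0.00376), held without number 1 for Ctf1 against alprostadil (0.0201), and were lost in the other 2 runs each. Lifr for the combination against trimebutine passed without number 3 (−0.33, adjusted p = 0.0106). Il6, Il6r, Il11ra1 and Socs3 kept their calls for the combination against trimebutine in all runs. Under the stricter filter, the 50th percentile, Il11 and Ctf1 were not tested and so have no value. The cause of the changed calls was not tested.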
